A study of Mus musculus with 27 samples.

Results

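The time course of mouse embryonic stem cells (mESCs) in 2i medium comprised 4 cultures that had spent 0 h, 24 h, 48 h or 96 h in 2i when they were collected. Its cells were chosen by the pre-culture condition of their plate, condition 1 for 0 h, condition 4 for 24 h, condition 3 for 48 h and condition 2 for 96 h. They number 2759 of the 4147 mESCs and of the 8784 cells listed for the whole series, which also holds single gastruloids, the aggregates grown from such cells. Each culture was sorted into 2 plates of 384 wells, and single-cell transcriptomes were made with CEL-seq2, in which each transcript receives a molecular identifier. All cultures were of the 129S1/SvImJ / C57BL/6 hybrid line called B6 and were kept on gelatin in ESLIF, a medium with serum and mouse leukaemia inhibitory factor (mLIF). Condition 1 stayed in ESLIF, and conditions 4, 3 and 2 were moved to 2i for the last 24 h, the last 48 h or all 96 h of the pre-culture. The 2i medium was free of serum and held mLIF, CHIR99021 and PD032509. The sample labels give only the number of the condition, and the hours were taken from the study's description of the pre-cultures. The course compares separate cultures and does not follow one culture through time, and whether all were collected on one occasion is not given in the sources used here.

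CHIR99021 inhibits the kinase GSK3 and so stabilises beta-catenin, the effector of Wnt signalling, and PD032509 inhibits MEK, the kinase that activates ERK. FGF acting through ERK moves pluripotent cells towards lineage commitment, and cells in which it is blocked are held close to the naive epiblast, a condition known as the ground state. mESCs in serum are more heterogeneous, express early lineage genes at a low level, and pass through the cell cycle with a short G1 phase, which is known to lengthen in 2i.

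The 4 hours held 698, 638, 709 and 714 cells in order of time in 2i, and single plates held 284 to 364. The plates carried 15111059 to 33458578 reads before mapping and 2291461 to 4158869 counts in the listed cells. Each hour was 1 culture, and its plates are labelled as technical replicates. The spread between plates is therefore technical, no test between hours was possible, and culture and hour cannot be told apart. Differences between hours are set beside the largest gap between the plates of one hour, and binomial intervals on shares cover counting error only. Of 383 well numbers, 379 occurred on more than 1 plate, as plates reuse them, and 0 cell names did. The files used here hold per-cell summaries and no values of single genes, so the names of cell states could not be checked against marker genes.

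The cell cycle was described by an S score and a G2M score per cell, which have no unit and no true zero, and by a phase call. In 4147 of 4147 mESCs the call followed from the deposited scores, with G1 where both were below 0 and otherwise the phase with the higher score. The cells of 0 h were called G2M most often and S least often. On the plates of 0 h, 43.2% and 42.5% of cells were called S. At 24 h the plates held 50.3% and 46.8%, and at 48 h they held 53.3% and 54.8%. At 96 h the shares were 51.5% and 51.3%. Both plates of 0 h lay below all plates of the other hours, and both plates of 48 h lay above them.

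The S share averaged 42.8% ± 0.492 (SD, n = 2 technical plates) at 0 h, 48.6% ± 2.44 at 24 h, 54.0% ± 1.05 at 48 h and 51.4% ± 0.165 at 96 h. The steps from 0 h to 24 h and from 24 h to 48 h, of 5.72 and 5.48 percentage points, were larger than the widest gap between plates of one hour, 3.45 points. The step from 48 h to 96 h was -2.64 points and smaller than that gap. With all cells of an hour together, the exact 95% intervals were 39.1% to 46.6% at 0 h, 44.8% to 52.7% at 24 h, 50.3% to 57.7% at 48 h and 47.7% to 55.1% at 96 h. The interval of 0 h overlapped that of 24 h and lay below those of 48 h and 96 h.

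The G2M share mirrored the S share, since few cells were called G1. It was 56.0% and 57.5% on the plates of 0 h, 48.6% and 51.1% at 24 h, 45.6% and 44.1% at 48 h, and 46.0% and 46.7% at 96 h. G1 was called for 3 cells at 0 h, 10 at 24 h, 8 at 48 h and 16 at 96 h. These were 0.430%, 1.57%, 1.13% and 2.24% of the cells, and 0 of the 346 cells of plate 2 of 0 h were called G1, which allows a share of up to 0.867% by a limit of 3 cells and 1.06% by the exact 95% interval. The exact intervals of 0 h (0.0887% to 1.25%) and 96 h (1.29% to 3.61%) did not overlap, whereas those of 24 h and 48 h overlapped both.

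**Figure D1:**
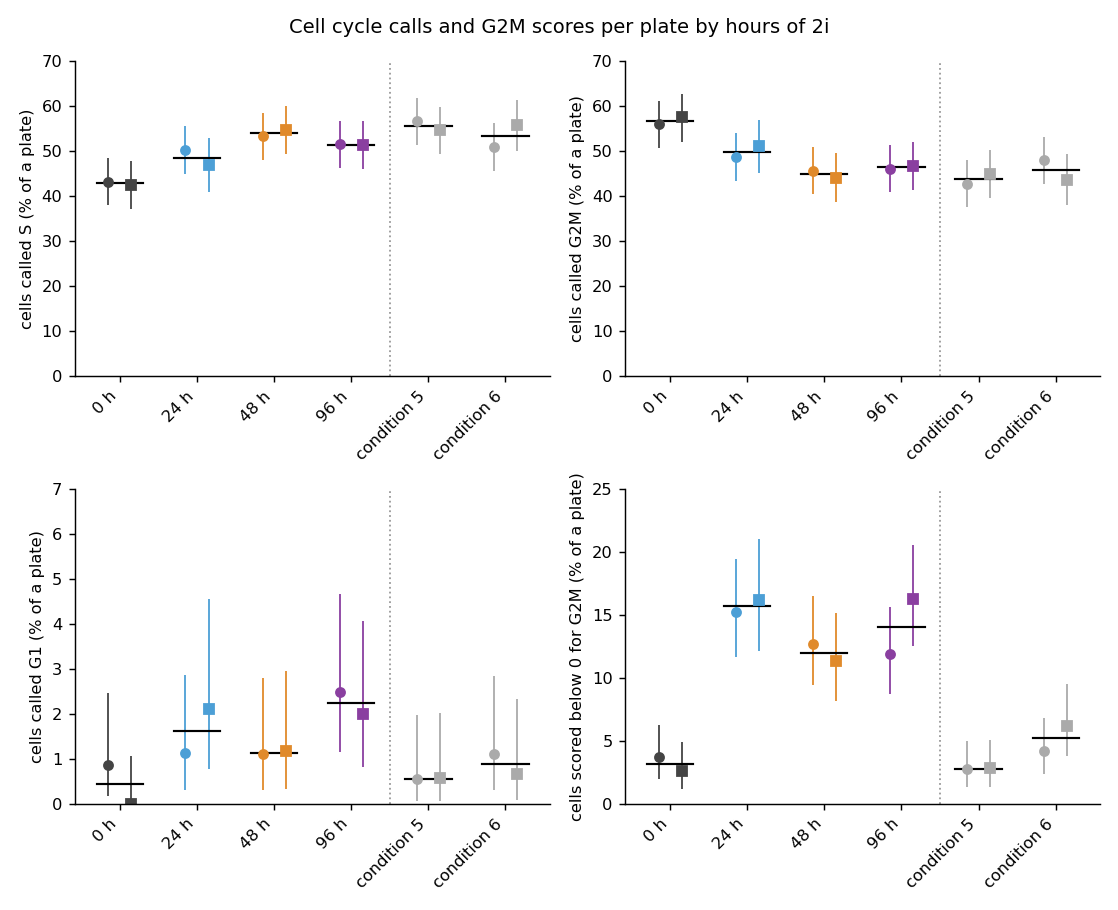
Percent of the cells of each plate called S, G2M and G1 and percent with a G2M score below 0, for the 4 hours of 2i and, to the right of the dotted line, for conditions 5 and 6, which returned to ESLIF after 2i. Circles and squares are technical plates 1 and 2, vertical lines are exact 95% binomial intervals and black bars are means of both plates. S calls are lowest at 0 h, and all 6 plates in 2i lie between 11.3% and 16.2% in the last panel, above all 6 plates in ESLIF.

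The cultures in 2i also lay apart from 0 h in the share of cells with a G2M score below 0. As the score has no true zero, this cut does not mark an absence of G2M signal. Such a score was found in 3.69% and 2.60% of the cells on the plates of 0 h. The share was 15.3% and 16.2% at 24 h, 12.6% and 11.3% at 48 h, and 11.8% and 16.2% at 96 h. It was higher at 24 h than at 0 h by 12.6 percentage points, where plates of one hour differed by at most 4.39 points, and the later steps of -3.75 and 2.07 points were within that gap. The cultures that had returned to ESLIF had low shares again. Condition 5, with 48 h of 2i followed by 48 h of ESLIF, held 2.74% and 2.80%, and condition 6, with 24 h of each, held 4.18% and 6.19%. All 6 plates in 2i therefore exceeded all 6 plates in ESLIF, a contrast that was chosen after the values were seen and was not tested.

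Nearly all of these cells carried a positive S score and so were called S. This was the case for 90 of 100 such cells at 24 h, 77 of 85 at 48 h, 84 of 100 at 96 h and 19 of 22 at 0 h. They came from the commonest state of their hour in 79, 62, 84 and 14 cells, in the same order. Their median counts per cell were lower than those of the other cells at each hour, with 3407 against 7306.5 at 0 h, 7150.5 against 10799.5 at 24 h, 6436 against 8310.5 at 48 h and 4327 against 8626 at 96 h. Among cells of 5000 to 15000 counts, a G2M score below 0 was found in 2.13% and 1.91% at 0 h. The plates in 2i held 8.62% to 19.0% in that range, and those of conditions 5 and 6 held 1.99% to 2.92%. All plates in 2i again exceeded all plates in ESLIF.

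The G2M score differed from 0 h mainly at its lower end. The lower quartile of the G2M score was 0.0293 and 0.0278 on the plates of 0 h and between 0.0148 and 0.0177 on the 6 plates in 2i. Its upper quartile was 0.0847 and 0.0790 at 0 h and overlapped that of the plates in 2i, which ranged from 0.0733 to 0.0805. The median G2M score was 0.0529 and 0.0482 at 0 h, 0.0435 and 0.0436 at 24 h, 0.0380 and 0.0400 at 48 h, and 0.0402 and 0.0455 at 96 h. The difference from 0 h to 24 h, -0.00700, was larger than the widest gap between plates, 0.00535, and the later steps were not.

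The G2M score was also more spread between cells in 2i. Its SD across the cells of a plate was 0.0358 and 0.0363 at 0 h, 0.0424 and 0.0430 at 24 h, 0.0422 and 0.0421 at 48 h, and 0.0388 and 0.0391 at 96 h. Plates of one hour differed by at most 0.000650, and the steps from 0 h to 24 h (0.00662) and from 48 h to 96 h (-0.00320) both exceeded that gap. The plates of condition 5 differed by 0.00355, however. Only the first of these steps was larger than that, and the difference of 0.00290 from 0 h to 96 h was not. The S score differed less between hours. Its median was 0.0424 and 0.0385 at 0 h, 0.0435 and 0.0411 at 24 h, 0.0447 and 0.0479 at 48 h, and 0.0444 and 0.0467 at 96 h, and the plates of 0 h and 24 h overlapped.

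The calls depended on the cut at 0. The scores of 303 cells of the course, 10.98%, lay less than 0.01 apart. With G1 called where both scores were below 0.05, the S share averaged 32.2% at 0 h, 33.2% at 24 h, 39.8% at 48 h and 38.1% at 96 h, so that the first step was 0.967 points. The G2M share was then 47.1%, 40.8%, 38.5% and 38.9%, again highest at 0 h, and the G1 share was 20.7%, 26.1%, 21.7% and 23.0%. Free RNA can enter such scores, and its part was not tested.

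Because cells called G2M held more counts, S calls were also compared between cells of like depth, in classes chosen after the data were seen. Among cells of 6000 to 10000 counts, 115 of 240 were called S at 0 h (47.9%), 81 of 140 at 24 h (57.9%), 161 of 275 at 48 h (58.5%) and 112 of 171 at 96 h (65.5%). Among cells of 10000 to 15000 counts the shares were 32.2%, 51.9%, 52.2% and 45.8%, and among those over 15000 counts they were 6.25%, 26.7%, 19.2% and 36.4%. From 3000 to 6000 counts they were 50.0%, 63.6%, 65.3% and 56.4%. The share of 0 h was the lowest in these 4 classes. It was not the lowest in cells of 1000 to 3000 counts, with 51.1% against 46.8% to 49.3%, or in cells under 1000 counts, with 55.2% against 47.6% to 56.6%. Each class holds both plates together, and the plates could enter unevenly. Over 15000 counts they gave 110 and 25 cells at 24 h and 23 and 98 at 96 h. The share of 0 h in that class was 3 of 48 cells. With all cells of 5000 to 15000 counts in one class, the plates held 41.3% and 45.9% at 0 h, 60.9% and 49.7% at 24 h, 55.4% and 59.3% at 48 h, and 54.3% and 59.0% at 96 h. Both plates of 0 h were again the lowest. The first step was 11.7 points ± 8.57 (SD from the plates), about as large as the gap between the plates of 24 h, and the later steps of 2.04 and -0.680 points were smaller than that gap.

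**Figure D2:**
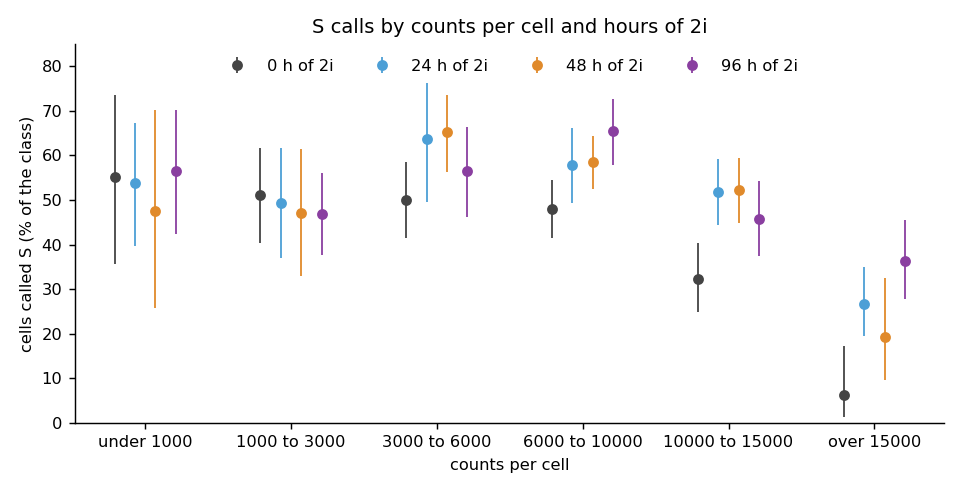
Percent of cells called S within classes of counts per cell, for the 4 hours of 2i with both plates together. Points are shares, and vertical lines are exact 95% binomial intervals. In the 4 classes from 3000 counts upwards the share at 0 h (50.0%, 47.9%, 32.2% and 6.25%) is the lowest of the 4 hours. The intervals of all hours overlap in the classes under 6000 counts. The interval of 0 h also overlaps those of 24 h and 48 h from 6000 to 10000 counts. It overlaps that of 96 h from 10000 to 15000 counts and that of 48 h over 15000 counts.

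Conditions 5 and 6 were also in ESLIF when collected, but after 48 h or 24 h of 2i, so they are not repeats of the culture of 0 h. Their S shares were 55.7% and 53.3%, so the culture of 0 h was the lowest of all 6, and the other cultures in ESLIF had S shares in or above the range of those in 2i. The 3 cultures in 2i averaged 51.3% ± 2.74 (SD) and the 3 in ESLIF 50.6% ± 6.84. Each of the 6 cultures had its own pre-culture, so these SDs include differences of treatment and not only those between like cultures. The difference of 0.719 points had p = 0.9 in a two-sided exact permutation test over the 20 ways to divide the cultures, a test that cannot give a p below 0.1.

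In the same exact permutation test, 2 of the 5 measures reached the smallest possible p of 0.1, with 0.25 after Benjamini-Hochberg adjustment. The G1 share was 1.66% ± 0.555 (SD, 3 cultures) in 2i and 0.621% ± 0.236 in ESLIF, and the median G2M score was 0.0418 ± 0.00245 in 2i and 0.0476 ± 0.00260 in ESLIF. Every culture in 2i had more G1 calls and a lower G2M score than every culture in ESLIF. For the G1 share this was lost at greater depth, where the difference of 1.04 points became 0.680 with at least 1000 counts (exact permutation p = 0.2) and 0.623 with 5000 to 15000 counts (exact permutation p = 0.3). The median S score was 0.0573 in condition 5 and 0.0568 in condition 6, above all 4 cultures of the course, and the test of 2i against ESLIF gave p = 0.4 by exact permutation.

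Counts and genes per cell did not separate the hours beyond the gap between plates. The median was 6845 and 7873.5 counts per cell at 0 h, 11880 and 7965 at 24 h, 7400 and 8763 at 48 h, and 7581 and 9041 at 96 h. The plates of 24 h differed by 3915 counts, more than any difference between hours. Median genes per cell were 3449 and 3658 at 0 h, 4745 and 3852 at 24 h, 3720 and 4018 at 48 h, and 3708 and 4086 at 96 h. Among cells of 6000 to 10000 counts they were 3681 and 3645.5 at 0 h and lay between 3725 and 3996 on the 6 plates in 2i. The differences from 0 h to 24 h (240.25 genes) and to 96 h (222 genes) exceeded the widest gap between plates of one hour in this range, 185 genes. They were smaller than the gap of 261 genes between the plates of condition 6. The plates of conditions 5 and 6, also in ESLIF, held 3735 to 4105 genes, so the low values were those of the culture of 0 h and not of ESLIF cultures in general. In a line fitted to log2 genes against log2 counts, the medians of the residuals overlapped between all hours, from -0.02 to 0.05 on the log2 scale.

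The percentage of mitochondrial reads was highest at 0 h and lowest at 48 h. The plate medians were 6.51% and 7.99% at 0 h, 5.66% and 5.65% at 24 h, 5.34% and 5.14% at 48 h, and 6.69% and 5.97% at 96 h. The plates of 0 h and 96 h overlapped, and those of 24 h and 48 h lay below both. The differences from 0 h to 24 h, of -1.60 percentage points, and from 0 h to 48 h, of -2.01 points, were larger than the widest gap between plates, 1.48 points, and the later difference of 1.09 points from 48 h to 96 h was not. Without plate 2 of 0 h the first difference was -0.861 points, and without plate 1 it was -2.34 points. The other cultures in ESLIF had plate medians of 4.50% to 5.43%, below the culture of 0 h. Among cells of 6000 to 10000 counts, the differences from 0 h were -1.23 points at 24 h and -2.27 points at 48 h. Only the latter exceeded the widest gap between plates of one hour in that range, 1.88 points.

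**Figure D3:**
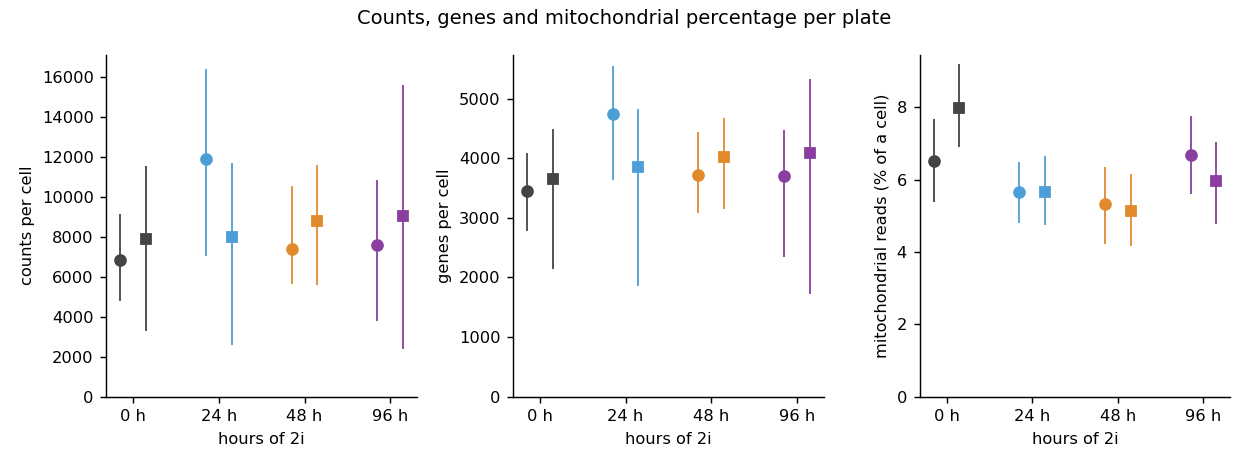
Median counts per cell, genes per cell and percentage of mitochondrial reads for each plate by hours of 2i. Circles and squares are technical plates 1 and 2, and vertical lines run from the lower to the upper quartile of the cells; the plates of 24 h differ by 3915 counts, and the mitochondrial percentage is lowest at 48 h, at 5.34% and 5.14%.

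The yield of cells also differed between plates. Listed cells filled 91.7% and 90.1% of the wells at 0 h, 92.2% and 74.0% at 24 h, 94.8% and 89.8% at 48 h, and 94.5% and 91.4% at 96 h, and plate 2 of 24 h stood apart. Cells under 1000 counts made up 1.70% and 6.65% at 0 h, 5.93% and 11.6% at 24 h, 0.824% and 5.22% at 48 h, and 5.79% and 9.12% at 96 h. At each hour plate 2 held the larger share of such cells.

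Within each culture, cells called G2M held more counts than cells called S. The median was 7918.5 against 6444 counts at 0 h, 11584 against 8968 at 24 h, 8885.5 against 7509 at 48 h, and 8909 against 7603 at 96 h. With conditions 5 and 6 included, the difference averaged 1926.75 counts ± 683.5 (SD) and was positive in 6 of 6 cultures. An exact two-sided sign-flip test gave p = 0.03125, the smallest that 6 cultures can give, and 0.05625 after adjustment over 9 comparisons of phases. The 4 cultures of the course alone, all positive, can give no p below 0.125. Genes per cell were higher in G2M calls by 471.8 ± 117.5 (SD) and the mitochondrial percentage was lower by 0.318 points ± 0.135 (SD), each in 6 of 6 cultures with the same exact p. This comparison of G2M with S was added because comparisons with G1 rested on 3 to 16 cells per culture. Against those cells, G2M calls held 5245.9 more counts ± 3433 (SD) in 6 of 6 cultures, with an exact p of 0.03125 and 0.09375 after adjustment over 6 tests. The 3 cells called G1 at 0 h had a median of 7859 counts, and the 16 at 96 h one of 1717.5.

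The cell states are the deposited annotation, which was made by clustering these same cells, so their separation by hour is a description. A different state led at each hour. Ectoderm Priming, deposited under the name Shh Signalling, held 643 of 698 cells at 0 h, and Epiblast-like held 544 of 638 at 24 h. Naive Pluripotency held 547 of 709 cells at 48 h, and Ground State Pluripotency, deposited as Core Pluripotency, held 654 of 714 at 96 h. The leading state took 90.6% and 93.6% of the plates at 0 h, 82.8% and 88.4% at 24 h, 82.7% and 71.3% at 48 h, and 93.1% and 90.0% at 96 h. It was most often shared with other states at 48 h.

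**Figure D4:**
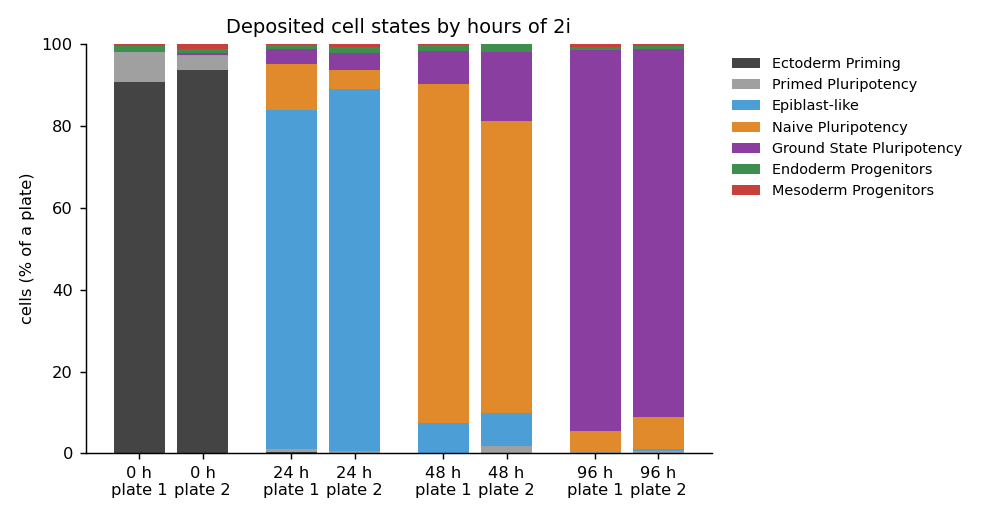
Percent of the cells of each plate in each deposited state, as stacked bars for both technical plates of the 4 hours of 2i. One state leads at each hour, from 71.3% of the cells on plate 2 of 48 h to 93.6% on plate 2 of 0 h, and 48 h is the hour with the states of both neighbouring hours.

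In the 3 cultures in 2i, the cells outside the leading state lay mostly in the state of the next or the preceding hour in 2i. At 24 h, 53 cells (8.31%) were in the Naive state of 48 h, 40 on plate 1 and 13 on plate 2. At 48 h, 55 cells (7.76%) were in the Epiblast-like state of 24 h and 88 (12.4%) in the Ground State of 96 h. At 96 h, 46 cells (6.44%) were in the Naive state and 2 in the Epiblast-like state.

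These cells differed in depth. The 53 Naive cells of 24 h had a median of 11193 counts and the 46 of 96 h one of 8420.5, against 10024 and 8060.5 in all cells of those hours. The 55 Epiblast-like cells of 48 h had a median of 6510 counts. The 88 Ground State cells of 48 h were split 30 to 58 between the plates, at medians of 6905 and 3122.5 counts, where the Naive cells of those plates had 7528 and 9569. A further 25 cells of 24 h (3.92%) were in the Ground State of 96 h with a median of 676 counts, and 20 of them were under 1000 counts. With at least 3000 counts per cell, the leading state took 94.3% of cells at 0 h, 89.1% at 24 h, 82.4% at 48 h and 91.2% at 96 h. The state of a later hour then held 9.51% of cells at 24 h and 9.11% at 48 h, and that of an earlier hour 6.59% at 48 h and 7.45% at 96 h.

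Crossing between the states of ESLIF and 2i was rare. Of the 698 cells of 0 h, 38 (5.44%) were in Primed Pluripotency, the state that led in conditions 5 and 6, and 2 in a state of the 2i hours, at 375 and 702 counts. Of the 2061 cells of the 3 cultures in 2i, 15 (0.728%) were in Ectoderm Priming or Primed Pluripotency. Their median was 849 counts against 8516 in all cells of these cultures, and 2 of the 15 had at least 3000 counts. Endoderm and Mesoderm Progenitors, the latter deposited as Cell Cycle Arrest/Mesoderm Progenitors, together held 2.15% of cells at 0 h, 1.57% at 24 h, 1.83% at 48 h and 1.26% at 96 h. The exact intervals of these shares overlapped between all hours.

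S calls were also compared between the states of one hour. At 48 h, 56.3% of the 547 Naive cells were called S (exact 95% interval 52.0% to 60.5%) and 42.0% of the 88 Ground State cells (31.6% to 53.0%). At 96 h the share was 51.7% of the 654 Ground State cells (47.8% to 55.6%) and 47.8% of the 46 Naive cells (32.9% to 63.1%). At 24 h it was 48.2% of the 544 Epiblast-like cells (43.9% to 52.5%) and 39.6% of the 53 Naive cells (26.5% to 54.0%). All 3 pairs of intervals overlapped, at 48 h only between 52.0% and 53.0%. Overlap does not show that shares are equal, and no test between states was run. The Naive cells were the deeper ones in each pair, with medians of 11193 against 10454 counts at 24 h, 8488 against 5211.5 at 48 h and 8420.5 against 8083 at 96 h.

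On the deposited UMAP, a map in which distances have no unit, the authors had regressed out counts, mitochondrial percentage and phase. The position along the first axis followed the hours. The plate medians were 6.12 and 6.11 at 0 h, 8.33 and 8.18 at 24 h, 10.2 and 10.2 at 48 h, and 12.97 and 12.42 at 96 h. Along the second axis they were 8.15 and 6.85 at 0 h, 1.31 and 2.14 at 24 h, -0.773 and -0.403 at 48 h, and 0.842 and 2.01 at 96 h, so 24 h and 96 h overlapped there. Conditions 5 and 6, back in ESLIF, had mean positions of 10.1 and 8.72 on the first axis, where 48 h and 24 h had 9.86 and 8.14. The first axis alone therefore did not separate cultures in 2i from those returned to ESLIF. On the second axis conditions 5 and 6 had means of 9.43 and 8.76.

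The largest displacement on the map was the first. The median position moved by 6.18 from 0 h to 24 h, by 3.03 from 24 h to 48 h and by 3.18 from 48 h to 96 h. The plates of one hour lay 0.375 to 1.30 apart, and the median cell lay 1.40 to 1.73 from the median of its hour. From 0 h the cultures of 48 h and 96 h were 9.09 and 8.97 away. Distances on such a map are a description and do not measure how far the cells had changed.

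**Figure D5:**
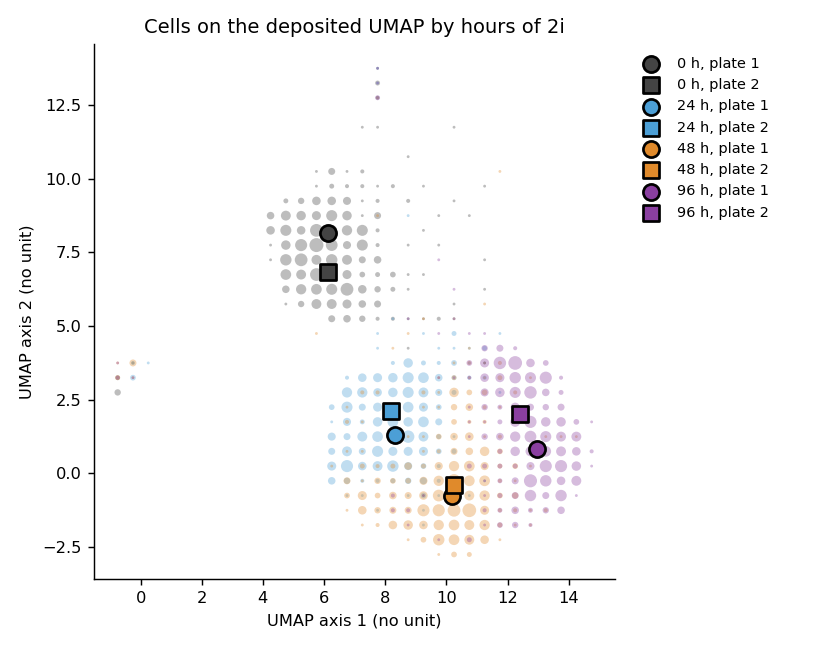
Cells of the 4 hours on the deposited UMAP, as pale circles whose area is the number of cells of an hour in a square of 0.5 by 0.5, with the median of each plate as a large symbol (circles for plate 1, squares for plate 2). The median on axis 1 is higher at each later hour, from 6.11 at 0 h to 12.7 at 96 h, and 24 h, 48 h and 96 h form one group apart from 0 h.

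Among the 3 hours in 2i, the mixing of cells on the map followed the order of the hours. Among the 15 nearest mESCs of a cell of 24 h, 12.1% were of 48 h (14.5% and 9.08% on the plates), 1.99% of 96 h and 0.564% of 0 h. A cell of 48 h had 11.2% of its neighbours from 24 h and 10.3% from 96 h, and one of 96 h had 10.2% from 48 h and 1.44% from 24 h. Cells of 0 h had 0.420%, 0.363% and 0.392% of their neighbours from 24 h, 48 h and 96 h. They had 2.85% from condition 5 and 5.11% from condition 6. Cells of these hours made up 15.4% to 17.2% of all mESCs, so each of these shares was below that of an even mixture.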

How the data were processed

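Single-cell transcriptomes of 8 mESC plates were analysed, with 4 plates of conditions 5 and 6 for comparison. Per the labels and the methods of the study, the authors trimmed reads with cutadapt 4.1, mapped them with STAR 2.5.3a to GRCm38 with strain differences masked, counted deduplicated reads per gene, and kept cells with at least 500 reads and at most 40% mitochondrial reads. In Scanpy they normalised to 500 transcripts per cell, regressed out counts, mitochondrial percentage and phase, and built the UMAP and clusters. The table deposited by the authors gives, per cell, the counts and genes (not normalized), the fraction of mitochondrial reads, printed here as percent, both cell cycle scores, phase, state and UMAP coordinates. Listed cells of the course held 375 counts or more, and 23 had under 500. The genes behind the scores are not given in the sources used here. The authors also deposited a report of the sequencing run with counts of reads per library before mapping, of which 3 libraries match no sample and were not used.

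Groups follow the sample labels. Of the state names, 3 differ between the table and the study and were matched by equal cell numbers. Shares, medians per plate and the 15 nearest cells on the UMAP were computed with Python 3.11.15, pandas 2.3.3, NumPy 2.4.6 and SciPy 1.17.1. Intervals are exact (Clopper-Pearson) at 95% and, like a share of 0, cover counting error only. With 1 culture per hour, the only tests were an exact two-sided permutation test of 3 cultures in 2i against 3 in ESLIF and an exact sign-flip test between phases over 6 cultures. Both used Benjamini-Hochberg adjustment and a threshold of 0.05, and their code was checked on made-up values with a known p. No gene-level values were used, so by the rule for named genes no gene is given a value, and neither thinning of cells to one depth nor a doublet caller was possible. The cultures, measures and lists were chosen with earlier results of these data known. Alternatives were limits on counts (at least 1000, 5000 to 15000) and on mitochondrial reads (20%), progenitor states left out, means, a phase cut of 0.05, 5 or 30 neighbours, neighbours within the course, the replicate number as a block, and each plate left out. Chosen after seeing the data were the classes of counts, residuals of genes on counts, the comparison of G2M with S, cells with scores at least 0.01 apart, a minimum of 3000 counts and the share of cells with a G2M score below 0.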

Additional observations from a re-analysis of the deposited data

How the results depend on the processing

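Under these alternatives, 636 values were recomputed for 52 results. Of these values, 583 stayed within the spread between plates or on the same side of the threshold of an exact test. Some could not do otherwise: tests of 2i against ESLIF cannot pass 0.05, and limits on counts keep all cells of 6000 to 10000 counts. Another 40 moved by more than that spread, 7 lost an exact p under 0.05 and 6 tested differences changed sign. Of the steps between hours, 18 changed sign, 14 of them within the spread and so counted among the 583. The other 4 were the G2M share to 96 h (-0.579 points, 5000 to 15000 counts), the G2M score to 48 h and 96 h (0.00105 and -0.00277, means) and the G1 share to 48 h (0.212 points, scores at least 0.01 apart). The cause was not tested. With 5000 to 15000 counts per cell the S share steps were 11.7, 2.04 and -0.680 points, the steps to 24 h and 48 h in cells with a G2M score below 0 were 14.9 and -5.92 points, the mitochondrial step to 48 h was -0.679 points, and the leading state took 94.8% at 0 h, 85.4% at 48 h and 88.7% at 96 h. The S share difference between 2i and ESLIF cultures was -0.314 points, and the mitochondrial difference of G2M and S calls was -0.103 points (exact p = 0.1875).

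With a phase cut of 0.05 the first S share step was 0.967 points and the difference between 2i and ESLIF cultures -4.94. With scores at least 0.01 apart the first step was 8.39 points. With at least 3000 counts, the step in counts to 96 h was 1945.75, the mitochondrial step to 48 h was -0.579 points and the leading state of 0 h took 94.3%. The difference in counts of G2M and G1 calls was 3886, 4510 and 3585 with at least 1000 counts, at most 20% mitochondrial reads and at least 3000 counts, each with an exact p of 0.09375. With means in place of medians the mitochondrial difference was -0.0873 points for G2M against G1 and -0.102 points for G2M against S (exact p = 0.28125). Searched within the course, neighbours of 0 h were of the own hour in 96.96%.

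With each plate left out in turn, neighbours from the own hour ranged from 85.6% to 92.5% at 0 h, 78.0% to 88.3% at 24 h, 65.6% to 81.6% at 48 h and 78.7% to 89.9% at 96 h. The S share difference between 2i and ESLIF cultures ranged from -0.0687 to 1.51 points, below 0 without plate 1 of condition 6. The counts of G2M against G1 calls ranged from 4861 to 5926 (exact p up to 0.0625, without plate 2 of 0 h). The mitochondrial difference ranged from -1.66 to 1.02 points for S against G1 and from -1.94 to 0.692 points for G2M against G1, both below 0 without plate 1 of condition 5, and from -0.338 to -0.283 points for G2M against S (exact p up to 0.0625, without the same plate). Plates share only a technical number. Plate 1 had the higher S share in 4 of 6 cultures and more counts in 3. With the replicate number as a block the S share difference between 2i and ESLIF cultures was 0.719 points. It could not differ, as both plates entered either way, and its p was not recomputed. The G1 calls rest on 3 to 16 cells per culture. Of cells under 1000 counts, 62.1%, 48.1%, 14.3% and 88.7% were in the leading state at 0 h, 24 h, 48 h and 96 h, against 93.4%, 88.7%, 79.1% and 91.8% of the deeper cells.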
